A study of Mus musculus with 6 samples.

Results

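The genes Chrna1, Chrnb1, Chrnd and Chrng encode the alpha, beta, delta and gamma subunits of the nicotinic acetylcholine receptor of skeletal muscle. H3K27ac, histone H3 acetylated at the lysine K27, marks active promoters and enhancers. It was examined around these 4 genes in C2C12, a mouse myoblast line whose cells leave the cell cycle and fuse into myotubes in culture. The data were 3 deposited peak lists of chromatin immunoprecipitation followed by sequencing (ChIP-seq), from proliferating C2C12 myoblasts, from cells at 36 h of differentiation and from cells at 72 h of differentiation, with 1 H3K27ac library per stage and no other treatment in the labels. Each library was made from the pooled DNA of 4 ChIP assays, so the spread between cultures was not measured and no test between stages was possible. In such bulk material a lower signal from fewer acetylated cells and from less acetylation per cell cannot be told apart. The peaks were those overlapping 3 fixed windows of mouse build mm9, namely chr2:73385000-73435000 for Chrna1 (50001 bp), chr1:89070000-89125000 for Chrnd and Chrng together (55001 bp) and chr11:69585000-69620000 for Chrnb1 (35001 bp). They numbered 26 of 57101 peaks in proliferation, 48 of 89717 at 36 h and 39 of 97144 at 72 h, 113 of 243962 in all. No peak could be tied to a gene's start, exon or intron, because an mm9 annotation was not used here. In the RefSeq gene order of build GRCm38.p6, the nearest protein-coding neighbours were Wipf1 and Chn1 for Chrna1, Prss56 before Chrnd and Eif4e2 after Chrng, and Zbtb4 and Fgf11 for Chrnb1, and some of the peaks may lie at these neighbours. The cell type and stage in the labels were likewise not checked against marker genes.

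The muscle receptor is a ligand-gated cation channel of the postsynaptic membrane, where acetylcholine released by the motor nerve opens it and depolarises the fibre. The alpha subunit contributes most of the acetylcholine binding site, with the delta subunit and either the gamma or the epsilon subunit forming its other face, and the beta subunit completes the ring. Fetal and denervated muscle use the gamma subunit, which the epsilon subunit replaces at mature synapses. In cultured muscle the subunit genes are switched on when myoblasts differentiate, through E-boxes, the CANNTG sites bound by MyoD, myogenin and related myogenic factors.

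The RefSeq promoter table held 3 of the 4 genes, namely Chrna1, Chrnb1 and Chrng. Because these genes are known to be activated through E-boxes, the 250 bases before each listed start are shown, with every CANNTG in capitals, 5′ to 3′ on the gene's strand. They come from build GRCm38.p6, at chr2:73580339-73580588 (minus strand), chr11:69795938-69796187 (minus strand) and chr1:87205561-87205810 (plus strand), and these positions cannot be set against the mm9 peaks.
Chrna1: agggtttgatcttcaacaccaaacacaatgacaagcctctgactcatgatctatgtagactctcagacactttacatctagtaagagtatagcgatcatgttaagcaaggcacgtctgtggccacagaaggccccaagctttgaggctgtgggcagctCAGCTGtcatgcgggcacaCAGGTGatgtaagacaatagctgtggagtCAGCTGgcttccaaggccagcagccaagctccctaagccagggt
Chrnb1: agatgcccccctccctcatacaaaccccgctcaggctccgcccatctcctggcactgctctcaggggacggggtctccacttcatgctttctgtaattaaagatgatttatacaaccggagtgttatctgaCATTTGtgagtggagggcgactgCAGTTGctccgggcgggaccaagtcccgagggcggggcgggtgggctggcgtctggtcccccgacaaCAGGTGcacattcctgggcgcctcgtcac
Chrng: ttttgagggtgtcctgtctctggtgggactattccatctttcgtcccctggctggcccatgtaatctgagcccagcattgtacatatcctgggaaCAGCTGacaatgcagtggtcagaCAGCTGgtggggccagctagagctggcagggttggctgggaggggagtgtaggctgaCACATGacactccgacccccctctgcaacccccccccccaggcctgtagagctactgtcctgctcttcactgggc
Each of the 3 promoters held 3 E-boxes. Of 32536 different RefSeq promoter stretches of this length, 12.2% held 3 or more, 66.2% held at least 1, and the median was 1. The E-box of the form CAGCTG, one of the sequences counted under CANNTG, occurred 2 times before Chrna1, at 92 and 44 bases before the start, and 2 times before Chrng, at 155 and 132 bases. It was found in 13.1% of all promoters, with 2 or more in 1.27%. The third E-box was CAGGTG at 73 bases before Chrna1 and CACATG at 75 bases before Chrng. Before Chrnb1 the E-boxes were CATTTG at 119 bases, CAGTTG at 96 bases and CAGGTG at 29 bases. Both strands were searched. The N-box CCGGAA, known from synaptic genes, was in none of the 3 and in 12.1% of all promoters. The MCAT motif CATTCCT was found before Chrnb1, where it begins 21 bases before the start, and in 4.53% of all. A match is a description of letters and not a bound site.

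More of each receptor window lay under H3K27ac peaks at 36 h than in proliferation, and more again at 72 h. The Chrna1 window had 8.01 kb under peaks in proliferating cells, 16.5 kb after 36 h and 21.0 kb after 72 h. In the Chrnd and Chrng window the lengths were 5.82 kb, 14.5 kb and 21.9 kb, and in the Chrnb1 window 1.10 kb, 5.28 kb and 6.67 kb. The 72 h length was 2.62, 3.77 and 6.09 times that of proliferation in the 3 windows, and 3.32 times over them together. The same ratio over the whole lists was 2.03, and at 36 h it was 2.43 over the windows and 1.79 over the lists. The Chrnb1 ratio rests on 4 proliferation peaks and depends on the settings. Their length was 391 bp when only peaks with a fold of at least 5 were kept, and 1856 bp with the window widened by 10 kb on each side. The 72 h length was then 6672 and 7917 bp. A greater length at the later stages was common in the genome. Among non-overlapping tiles of the window's length along chromosomes 1 to 19 and X that held a peak in any list, 69.5% of the 21450 tiles as long as the Chrna1 window had more under peaks at 36 h than in proliferation. For tiles as long as the Chrnd and Chrng and the Chrnb1 windows this share was 69.9% and 68.7%. The shares with more at 72 h than in proliferation were 79.1%, 79.4% and 77.9%, and with more at 72 h than at 36 h 61.9%, 62.3% and 61%, in the same order of windows.

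The size of the difference set the windows further apart from the tiles than its direction. A gain from proliferation to 72 h at least as large as that of the Chrna1 window, 13.0 kb, was found in 0.951% of tiles. For the Chrnd and Chrng window, with 16.1 kb, it was found in 0.484%, and for the Chrnb1 window, with 5.58 kb, in 4.91%. The gains to 36 h, of 8.47, 8.64 and 4.18 kb, were reached by 2.39%, 2.61% and 6.46% of tiles. In proliferation the Chrna1 and the Chrnd and Chrng windows already lay above 97.5% and 94.7% of tiles in the length under peaks, compared with 65.7% for the Chrnb1 window. The tiles were counted for description and the windows were chosen for known muscle genes, so these shares are no test.

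**Figure D1:**
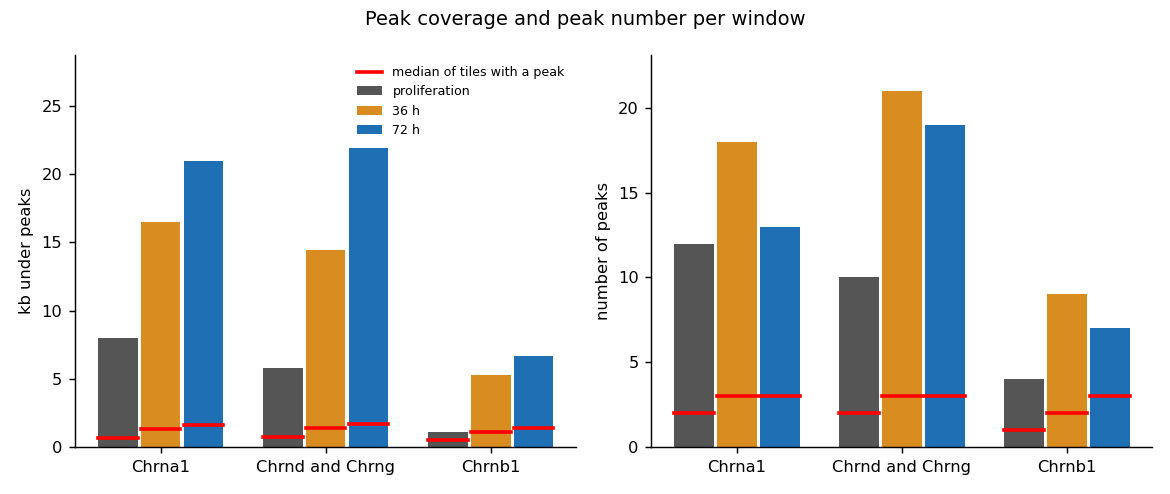
Length under H3K27ac peaks in kb (left) and number of peaks (right) in each window, as bars for proliferation, 36 h and 72 h, 1 library each, with red lines for the median of all tiles of the same length that hold a peak. Coverage was highest at 72 h in every window (21.0, 21.9 and 6.67 kb), while the number of peaks was highest at 36 h (18, 21 and 9).

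The number of peaks did not follow the length, and over the 3 windows it was 26 both in proliferation and at 72 h when the lists were cut to equal size. The Chrna1 window held 12 peaks in proliferating cells, 18 at 36 h and 13 at 72 h. The Chrnd and Chrng window held 10, 21 and 19, and the Chrnb1 window 4, 9 and 7. Peaks were therefore fewer at 72 h than at 36 h in all 3 windows, and the longest peak of each window was longer, at 7911, 7421 and 1542 bp compared with 4665, 2603 and 1465 bp. The median width over the windows was 384 bp at 36 h and 609 bp at 72 h, compared with 376 and 393 bp in the whole lists, but in the Chrna1 window alone it was 368 and 218 bp. Peaks wider than 2 kb numbered 1, 3 and 3 by stage in the Chrna1 window, 0, 2 and 3 in the Chrnd and Chrng window, and 0 at every stage in the Chrnb1 window. Almost every 36 h peak was still overlapped at 72 h, by at least 1 bp, in 46 of 48 cases (95.8%, compared with 77.0% in the whole 36 h list). In the other direction 25 of 39 peaks of 72 h (64.1%) were overlapped at 36 h, compared with 66.5% in the list. Of the 26 proliferation peaks, 19 (73.1%) were overlapped at 36 h and 25 (96.2%) at 72 h, compared with 76.3% and 82.0% in the list. Neighbouring peaks are not separate cases, as 7 of the 36 h peaks lay under the single 72 h peak of 7421 bp. The 72 h peaks covered 35.4% of the 3 windows, and an overlap of 1 bp is easier there than in sparser stretches.

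Fold enrichments of different lists are not on 1 scale, so stages were compared by the number of ChIP fragments at a peak's summit, recovered from the deposited fold and p-value, and scaled to the ChIP depth of the proliferation library. That depth was 1.19 times as high at 36 h and 1.10 times at 72 h. The local background used for calling, given relative to the genome background of its library, differed between the libraries. Its median over the peaks of the Chrna1 window was 1.61 in proliferation, 1.23 at 36 h and 1.49 at 72 h. In the Chrnd and Chrng window it was 1.98, 1.0 and 1.11, and in the Chrnb1 window 2.47, 1.53 and 1.85, compared with 1.93, 1.06 and 1.15 over the whole lists. A higher background raises the number of fragments a call needs, and its part in the differences in coverage was not tested beyond 1 alternative. With the depth scaled and the background of later peaks raised to at least the proliferation median, a setting chosen after seeing the data, the gains at 72 h were 12975, 15727 and 5576 bp, compared with 12975, 16105 and 5576 bp as called. That setting removes peaks and does not shorten the others. Where overlapping peaks were merged into a region, its level in each list was the highest summit of that list, so positions could differ between stages. Intervals below are exact 95% Poisson intervals, or exact conditional intervals for a ratio, for a count at a fixed position. They cover counting error only. The choice of the highest position, which has more room in a wider peak, is not covered.

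**Figure D2:**
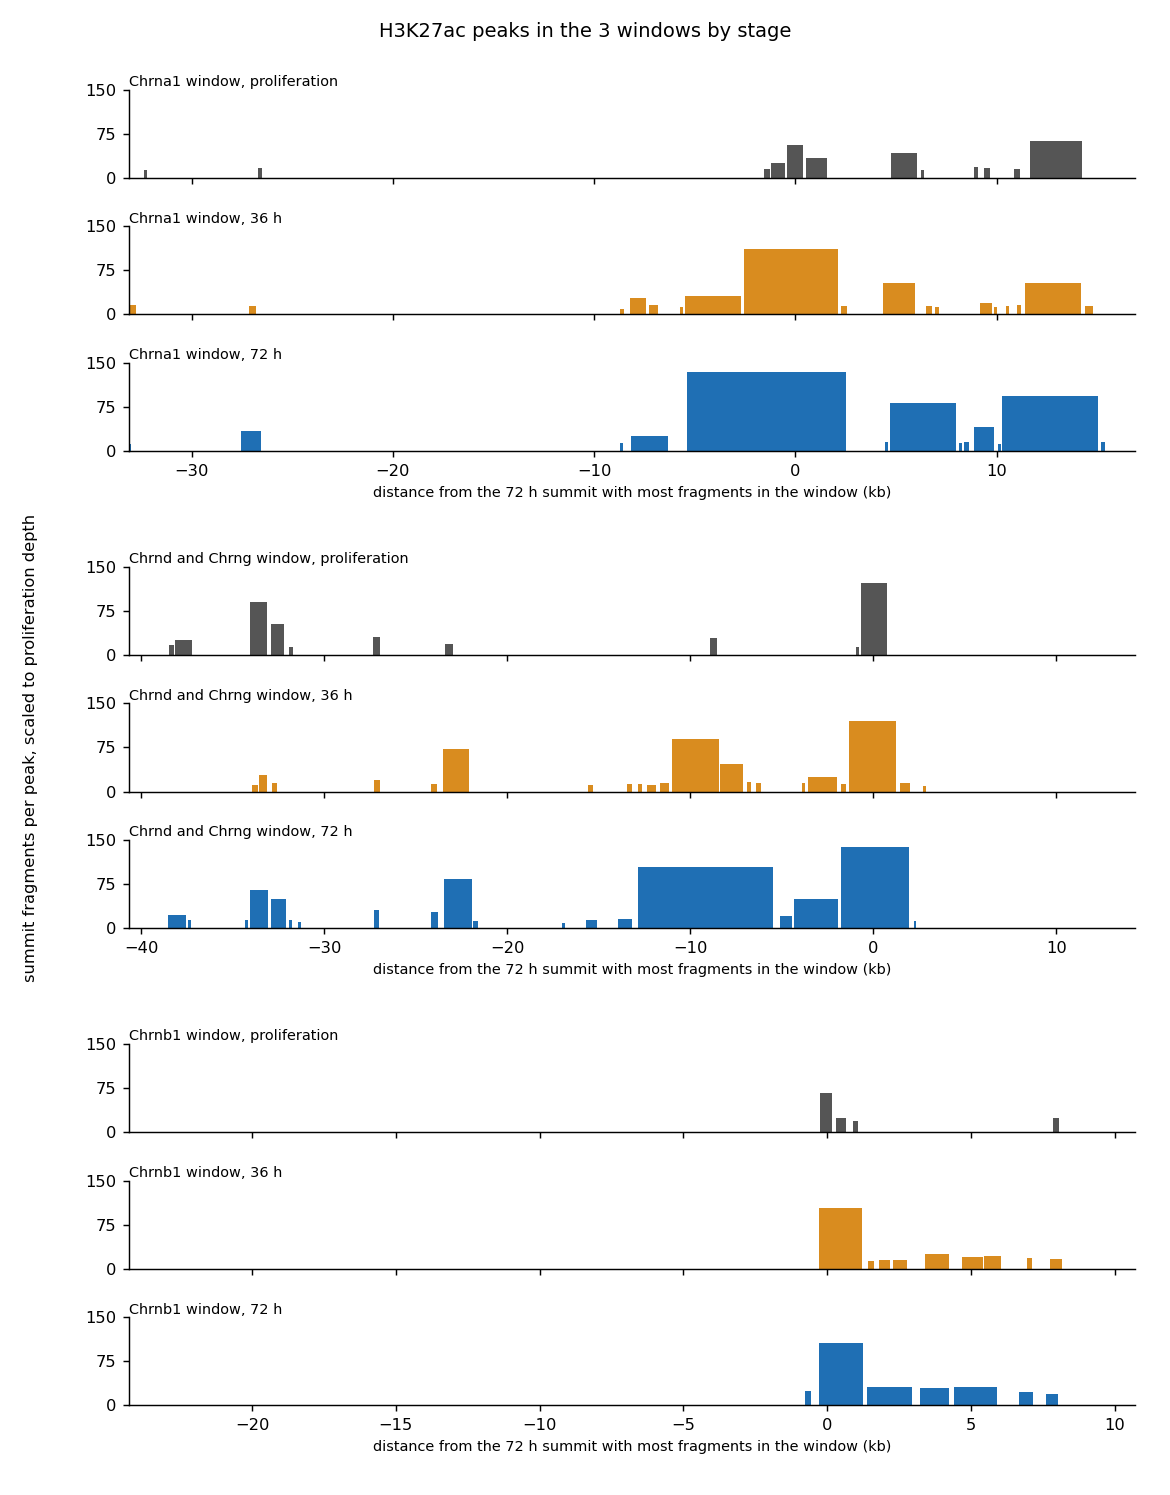
Peaks of each stage in the 3 windows, each drawn from its start to its end, with the height showing the fragments at its summit after scaling to the proliferation depth; the x axis is the distance in kb from the 72 h summit with most fragments in that window. The 2 widest peaks, of 7911 bp in the Chrna1 window and 7421 bp in the Chrnd and Chrng window, are both from 72 h.

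Overlapping peaks of the 3 lists merged into 40 regions, numbered here from the lowest coordinate within each window, with 14 for Chrna1, 19 for Chrnd and Chrng and 7 for Chrnb1. Regions with a peak at all 3 stages numbered 13 (32.5%), compared with 25.6% of the 112926 regions of the whole lists. Peaks at both later stages but none in proliferation were found in 11 regions (27.5%, compared with 22.3% overall). A peak at 72 h only was found in 11 (27.5%, compared with 23.9%) and a peak at 36 h only in 2 (5.00%, compared with 15.9%). Proliferation and 72 h without 36 h accounted for 2 (5.00%, compared with 3.95%), and proliferation only for 1 (2.50%, compared with 6.7%). No region had peaks in proliferation and at 36 h but not at 72 h, a class that held 1.7% overall. When peaks were merged across gaps of up to 1 kb, regions without a proliferation peak but with both later stages numbered 1 instead of 11. With lists of equal size they numbered 7.

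In the window of Chrna1, which encodes the subunit with the principal acetylcholine binding residues, the highest summits at 36 h and 72 h lay in region 7, chr2:73412632-73420691. In proliferation this stretch held 4 separate peaks covering 2798 bp, at 36 h 3 peaks covering 7739 bp and at 72 h a single peak of 7911 bp, which ranked 55 in width among the 97144 peaks of that list. The highest summit had 56 fragments in proliferation (42.3 to 72.7), 134 at 36 h (112.3 to 158.7) and 148 at 72 h (125.1 to 173.9). Scaled for depth, the summit was 2.0 times as high at 36 h as in proliferation (1.46 to 2.79) and 2.41 times at 72 h (1.76 to 3.34). The 2 later libraries were within counting error of each other, at 1.20 for 72 h over 36 h (0.945 to 1.53). Among all 28908 regions with a peak at each stage, 94.8% had a lower 36 h ratio and 94.9% a lower 72 h ratio. The 3 summits lay within 109 bp of each other, so the wider peaks of the later stages held their summit near that of the proliferation library. Such a spread was common, as 46.2% of the shared regions had one no larger and the median was 122 bp. Within the 72 h list its fold of 37.5 ranked 114.

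The regions on the high-coordinate side of region 7 were higher at 72 h, and there the 36 h library was closer to proliferation than to 72 h. Region 8, chr2:73422458-73426105, had 43, 64 and 90 summit fragments by stage, and the depth-scaled 72 h summit was 1.53 times that of 36 h (1.10 to 2.14) and 1.91 times that of proliferation (1.31 to 2.81). Region 11, chr2:73426987-73428141, had 18, 24 and 45 fragments, with a ratio of 2.04 for 72 h over 36 h (1.22 to 3.50). Its proliferation summit lay outside the 36 h peaks and up to 506 bp from the later summits. The proliferation peak at the position of those later summits had 16 fragments. Region 13, chr2:73428415-73433174, was the widest of these and held the peak with most fragments of the window in proliferation, 63, followed by 64 at 36 h and 103 at 72 h. Its 36 h ratio to proliferation was 0.850 (0.591 to 1.22), and its 72 h ratio to 36 h 1.75 (1.27 to 2.43). The length under peaks in region 13 was 2896, 3486 and 4760 bp. In these 3 regions the depth-scaled 36 h level was thus within counting error of proliferation, and the 72 h level was above both. Over all shared regions the median 72 h ratio was itself 1.13 to proliferation and 1.15 to 36 h. The interval of region 8 for 72 h over 36 h, 1.10 to 2.14, included the median of 1.15. The 72 h ratio of region 13 to proliferation, 1.49 (1.08 to 2.07), was above 74.9% of shared regions, and its interval included the median of 1.13. For regions 8 and 11 the share was 88.7% and 93.8%.

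On the low-coordinate side the Chrna1 window was empty of peaks for 17799 bp at 72 h and 24947 bp in proliferation, the longest uncovered stretch of either list there. Beyond it lay region 3, chr2:73390559-73391646, with 17, 17 and 37 fragments by stage and a 72 h ratio to 36 h of 2.37 (1.30 to 4.49). This was above 97.8% of the regions shared by the 3 stages. The proliferation and 36 h peaks of region 3 did not overlap each other, and its 3 summits were spread over 365 bp. Between this gap and region 7, region 5 at chr2:73409927-73411782 had peaks with 34 fragments at 36 h and 29 at 72 h and none in proliferation, and region 4 at chr2:73409392-73409607 had 12 and 15. Region 1, chr2:73384857-73385382, at the window's edge, had 19 and 14. The only region of the 3 windows called in proliferation alone was region 2 of this window, a single peak of 147 bp with 14 fragments. Region 6 was called at 36 h only, with 16 fragments, and regions 9, 10, 12 and 14 at 72 h only, with 14 to 17 fragments.

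Chrnd and Chrng, which encode the delta subunit and the fetal gamma subunit, lie next to each other, and their shared window split into parts that behaved differently. This division was made after the values had been seen. In regions 1 to 7, chr1:89072160-89083753, the length under peaks was 3427 bp in the proliferation library, 1278 bp at 36 h and 3800 bp at 72 h. In regions 8 to 19, chr1:89086533-89113588, it was 2395, 13183 and 18127 bp. Nearly all of the greater length at 72 h was therefore in the second part, while the first part had less at 36 h than at either other stage.

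Within the second part, regions 9 and 14 showed the largest depth-scaled ratios of all 13 regions shared by the stages. Region 9, chr1:89087165-89088745, had 18 summit fragments in proliferation (10.7 to 28.4), 86 at 36 h (68.8 to 106.2) and 91 at 72 h (73.3 to 111.7). The 36 h summit was 4.0 times (2.39 to 7.06) and the 72 h summit 4.61 times (2.76 to 8.12) that of proliferation. Region 14, chr1:89097820-89105240, had 28 fragments in proliferation (18.6 to 40.5), 107 at 36 h (87.7 to 129.3) and 114 at 72 h (94.0 to 136.9), or 3.20 times (2.09 to 5.04) and 3.71 times (2.44 to 5.83). More than 99% of the shared regions of the genome had lower ratios, namely 99.7% at both stages for region 9 and 99.2% and 99.1% for region 14. In both regions the libraries of 36 h and 72 h were within counting error of each other, at 1.15 (0.848 to 1.57) and 1.16 (0.883 to 1.52), and the proliferation interval did not overlap either.

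Region 14 also had the largest difference in length under peaks from proliferation. A single proliferation peak of 353 bp was followed by 7 peaks covering 5535 bp at 36 h and by 1 peak of 7421 bp at 72 h, which ranked 73 in width among the 72 h peaks. The highest summits lay within 98 bp of each other, and 42.4% of shared regions had a spread no larger. Next to region 14, region 16, chr1:89106370-89108757, had no peak in proliferation, 29 fragments at 36 h and 55 at 72 h, with a depth-scaled ratio of 2.06 between the later stages (1.29 to 3.36). Its 36 h and 72 h summits lay 696 bp apart. Region 8, chr1:89086533-89086920, beside region 9, had 16 and 30, with a ratio of 2.04 (1.08 to 4.01). Region 12, chr1:89095016-89095624, had 13 and 15, and region 13, chr1:89096747-89097525, 16 and 17.

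Region 17, chr1:89108921-89112728, at the other end of the second part, held the highest summits of the window and differed little between stages. It had 123 summit fragments in proliferation (102.2 to 146.8), 143 at 36 h (120.5 to 168.5) and 151 at 72 h (127.9 to 177.1). The depth-scaled ratios to proliferation were 0.973 at 36 h (0.759 to 1.248) and 1.12 at 72 h (0.876 to 1.43), and the 3 summits fell within 15 bp, a spread reached by only 3.42% of shared regions. The length under peaks was nevertheless 1573, 3432 and 3723 bp. Its fold of 45.4 ranked 12 in the 72 h list, and its fold of 20.9 ranked 276 in the proliferation list. The local background at the summit was 2.97, 2.39 and 1.11 times the genome background in the order of the stages.

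The first part of the window had its lowest H3K27ac at 36 h. Region 3, chr1:89076615-89077628, had 90 summit fragments in proliferation (72.4 to 110.6), 33 at 36 h (22.7 to 46.3) and 72 at 72 h (56.3 to 90.7). The 36 h summit was 0.307 times that of proliferation (0.199 to 0.462), and the 72 h summit was 2.37 times that of 36 h (1.55 to 3.70). Region 4, chr1:89077753-89078577, had 53, 17 and 54 fragments, with a ratio of 0.268 at 36 h (0.146 to 0.471) and of 3.46 from 36 h to 72 h (1.97 to 6.36). Only 0.754% and 0.329% of shared regions had a lower 36 h ratio than regions 3 and 4. The neighbouring region 7, chr1:89083346-89083753, had 31, 24 and 34 fragments, and its 36 h ratio of 0.648 had an interval that included 1 (0.364 to 1.14). The local background was lower at 36 h than in proliferation at all 3 of these summits, with 1.0, 1.0 and 1.60 times the genome background compared with 1.98, 2.18 and 1.98.

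Both regions of the 3 windows that had peaks in proliferation and at 72 h and none at 36 h lay in this first part. Region 1, chr1:89072160-89073439, had 26 fragments in proliferation and 25 at 72 h, at summits 464 bp apart. At a background equal to the 95% quantile of its own peaks, the 36 h list needed 15 fragments for a call, or 12.6 on the scale of the proliferation library, so a signal of the proliferation level lay above that bar. Region 5, chr1:89078742-89078987, had 13 and 15 fragments, close to the same bar. At 72 h the ratios to proliferation were 0.876 (0.485 to 1.58) for region 1, 0.729 (0.527 to 1.005) for region 3, 0.928 (0.623 to 1.38) for region 4, 1.051 (0.467 to 2.40) for region 5 and 0.999 (0.596 to 1.68) for region 7. Regions 2 and 6 of this part and regions 10, 11, 15 and 18 of the other were called at 72 h only, with 9 to 22 fragments, and region 19 at 36 h only, with 12.

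The window of Chrnb1, which encodes the beta subunit, was the shortest. It also had the smallest share under peaks at every stage, with 3.13% in proliferation, 15.1% at 36 h and 19.1% at 72 h. All peaks of this window lay in its high-coordinate part, leaving at least 23.5 kb without a peak at every stage. With the window widened by 10 kb on each side, the 72 h length was 7917 bp instead of 6672 bp. Region 2, chr11:69608996-69610528, had 67 summit fragments in proliferation (51.9 to 85.1), 123 at 36 h (102.2 to 146.8) and 116 at 72 h (95.9 to 139.1). The depth-scaled summit was 1.54 times that of proliferation at 36 h (1.13 to 2.10) and 1.58 times at 72 h (1.16 to 2.16), with 1.03 between the later stages (0.790 to 1.33). Of the regions shared by all stages in the genome, 86.2% had a lower 36 h ratio and 78.9% a lower 72 h ratio. The 3 proliferation peaks of region 2, covering 904 bp, corresponded to 1 peak of 1465 bp at 36 h and 1 of 1533 bp at 72 h. In this region the difference from proliferation was present at 36 h, as it was in region 7 of Chrna1 and in regions 9 and 14 of the Chrnd and Chrng window.

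Next to it, 4 regions in a row were called at 36 h and 72 h and not in proliferation. Region 3, chr11:69610690-69612231, had 18 and 34 summit fragments at 36 h and 72 h, region 4, chr11:69612534-69613539, 29 and 32, region 5, chr11:69613716-69615324, 26 and 35, and region 6, chr11:69615974-69616440, 21 and 25. Together with region 2 they extended the peaks over a stretch that in proliferation held them only at its ends. Region 7, chr11:69616908-69617467, at the far end, had 24, 20 and 22 fragments by stage, with ratios to proliferation of 0.697 (0.365 to 1.32) and 0.835 (0.446 to 1.55). Region 1 was called at 72 h only, with 26 fragments.

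**Figure D3:**
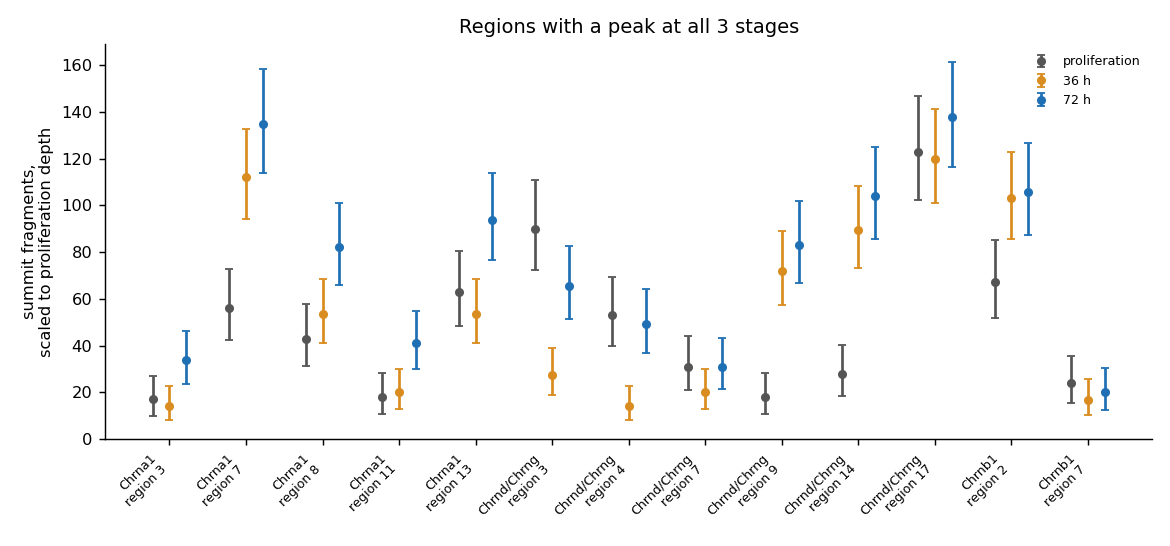
Highest summit in each of the 13 regions that had a peak at every stage, in fragments scaled to the proliferation depth, with exact 95% Poisson intervals for counting error; points are single libraries. Regions 9 and 14 of the Chrnd and Chrng window and region 7 of Chrna1 are higher at both later stages, and regions 3 and 4 of the Chrnd and Chrng window are lowest at 36 h.

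Over the 13 shared regions the median depth-scaled ratio to proliferation was 0.973 at 36 h and 1.58 at 72 h, compared with 0.999 and 1.13 over all 28908 shared regions of the genome. The 36 h ratio ranged from 0.268 to 4.0. It was at least 1.5 in 4 of 13 regions, compared with 15% of all shared regions, and the proliferation summit was at least 1.5 times that of 36 h in 3, compared with 19.1%. At 72 h the ratio was at least 1.5 in 7 of 13, compared with 24.6%, and the reverse was seen in 0, compared with 10.6%. From 36 h to 72 h, 7 of 13 ratios were at least 1.5, compared with 19.6%, and 0 the reverse, compared with 3.71%. Regions of 1 window are neighbours and not independent of each other. The windows thus held regions with different courses. Levels were already above proliferation at 36 h in 4 regions, namely region 7 of Chrna1, region 2 of Chrnb1 and regions 9 and 14 of Chrnd and Chrng. In regions 3, 8, 11 and 13 of Chrna1 the 72 h level was above proliferation and the 36 h level was not, beyond counting error. The 72 h ratio to proliferation was 1.98 (1.09 to 3.75) in region 3 and 1.49 (1.08 to 2.07) in region 13. Both intervals included the median of 1.13 over all shared regions, so these 2 were not set apart from it. All these levels are the highest summit of each list. In regions 3 and 11 of Chrna1 the summits were spread over 365 and 506 bp. Regions 3 and 4 of Chrnd and Chrng were lowest at 36 h.

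**Figure D4:**
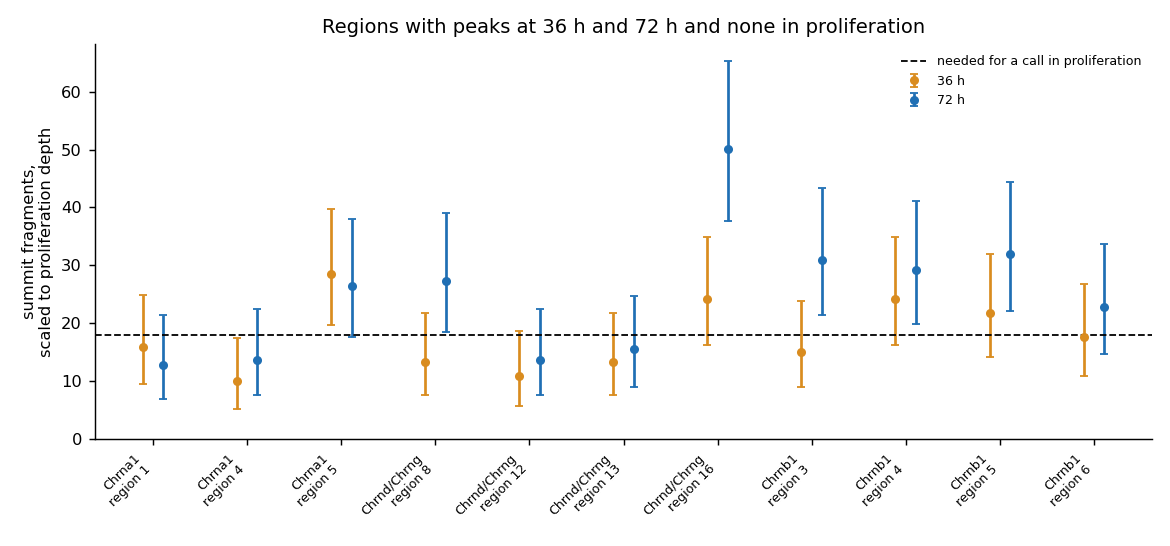
Highest summit at 36 h and 72 h in the 11 regions called at both later stages and not in proliferation, in fragments scaled to the proliferation depth, with exact 95% Poisson intervals; the dashed line marks the 18 fragments needed for a call in proliferation at the 95% quantile of its background. The highest is region 16 of the Chrnd and Chrng window at 72 h.

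Some regions without a proliferation peak might not have been called there at equal signal. With the background at the 95% quantile of the proliferation peaks, a call in that library needed 18 fragments. At a lower local background fewer were enough, and some proliferation peaks of these windows were called with as few as 13 fragments. Of the 13 regions with a 36 h peak and none in proliferation, 4 (30.8%) had a depth-scaled summit at or above this number, compared with 29.5% over the whole lists. Of the 22 with a 72 h peak and none in proliferation, 9 (40.9%) did, compared with 37.6%, so these shares were near the background. The highest was region 16 of the Chrnd and Chrng window, with 24.3 scaled fragments at 36 h and 50.1 at 72 h. Region 5 of Chrna1, with 28.5 at 36 h and 26.4 at 72 h, and regions 4 and 5 of Chrnb1, with 24.3 and 21.8 at 36 h and 29.1 and 31.9 at 72 h, were likewise above the number at both stages. Region 8 of Chrnd and Chrng and regions 3 and 6 of Chrnb1 were above it at 72 h and below it at 36 h. Region 15 of Chrnd and Chrng, with 20.04 scaled fragments, and region 1 of Chrnb1, with 23.7, were above it at 72 h, the only stage at which they were called. In the other regions without a proliferation peak, a signal as high as that of the later stages could have been missed in the proliferation library.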

How the data were processed

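H3K27ac ChIP-seq peak lists of 3 C2C12 libraries were used, and the 3 input libraries had no file used here. The submitters' processing notes list BWA, MACS2, deepTools and mm9. Their versions, settings and control were not stated in the labels. Per the narrowPeak format, the deposited columns hold the authors' fold (a ratio at the summit), −log10 p and −log10 q, and a deposited score that was not used. Each library had its own list. Read totals were not given. Summit fragments and backgrounds were solved from fold and p, assuming that MACS2 adds 1 to each pileup and uses an upper Poisson tail, for 100% of peaks within a relative tolerance of 0.001. The procedure was also run on peaks simulated with the same formula, which checks the solving and cannot check the formula. Relative depths assume 1 fragment length and genome size setting. Peaks overlapping by at least 1 bp were merged. Motifs were searched in RefSeq promoters. The windows, genes and lists were chosen with earlier results of these data known. Regions with a peak in at least 2 lists are named with coordinates, and the others by number. Python 3.11.15, pandas 2.3.3 and scipy 1.17.1 were used. Alternatives changed the thresholds, list size, merging, window edges and depth.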

Additional observations from a re-analysis of the deposited data

How the results depend on the processing

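No direction of a stage difference in coverage was reversed in any window under the 7 alternatives tried, and every such difference moved by less than 1.5 times, except 72 h against 36 h at Chrnb1. That difference was 2497 bp instead of 1393 bp with a −log10 q of at least 5, with a fold of at least 5 and with lists of equal size. Counts moved more. The proliferation peaks of the windows numbered 13 with a −log10 q of at least 5 and 14 with a fold of at least 5, instead of 26. At 36 h, 31 peaks remained with a fold of at least 5 and 31 with lists of equal size, instead of 48. With lists of equal size the 72 h peaks numbered 26 instead of 39, no more than the 26 of proliferation. Regions called at 36 h and 72 h and not in proliferation numbered 1 with gaps of up to 1 kb merged and 7 with equal list size. Regions called in proliferation only numbered 0 with a −log10 q of at least 5, 0 with gaps of up to 1 kb merged and 2 with equal list size, instead of 1. The Chrnb1 length under proliferation peaks was 391 bp with a fold of at least 5 and 1856 bp with windows widened by 10 kb, instead of 1096 bp. The cause of these moves was not tested beyond the fewer peaks and wider windows they use. No paired analysis was possible because each stage had 1 library. With 1 library per stage no replicate could be left out, and counting intervals do not hold the spread between cultures.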

Other observations

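Some stage differences in the receptor windows would read differently from the deposited folds, which divide by the local background. At region 17 of the Chrnd and Chrng window the fold was 20.9 in the proliferation list and 45.4 in the 72 h list, whereas the depth-scaled summit was 123 and 138 fragments. At region 2 of Chrnb1 the fold was 29.8 at 36 h and 15.4 at 72 h, whereas the depth-scaled summit was 103 and 106 fragments, and the local background 1.53 and 3.69 times the genome background. At region 14 of the Chrnd and Chrng window the fold was 26.0 at 36 h and 12.6 at 72 h, with 89.5 and 104 scaled fragments and a local background of 1.53 and 4.62 times. 
The length shared between stages is given beside that of the whole lists. In the Chrnd and Chrng window, 97.2% of the length under 36 h peaks was also under 72 h peaks, and 64.1% of the 72 h length was under 36 h peaks, compared with 78.4% and 69.0% over the whole lists. At Chrna1 these shares were 93.7% and 73.6%, and at Chrnb1 94.7% and 74.96%. Of the proliferation length, 62.7% was under 36 h peaks and 94.9% under 72 h peaks in the Chrnd and Chrng window, compared with 86.4% and 97.4% at Chrna1 100% and 97.7% at Chrnb1 and 75.7% and 80.9% over the whole lists. The 72 h list covers the most of the genome, and these shares are a description with no test.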
